A study of Mus musculus with 43 samples.

Results

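The subunits of voltage-gated sodium (Nav) channels, voltage-gated calcium (Cav) channels and hyperpolarization-activated, cyclic nucleotide-gated (HCN) channels were examined in NAcLat→VTA neurons, the cells of the lateral nucleus accumbens (NAcLat) that send axons to the ventral tegmental area (VTA). Members were taken by gene name, as every gene of the deposited tables called *Scn* with a number and a or b, *Cacna1* with a letter, *Cacna2d* with a number, *Cacnb* with a number or *Hcn* with a number. The rule found 36 of 35825 genes, made up of 10 Nav α subunits, 4 Nav β subunits, 10 Cav α1 subunits, 4 Cav α2δ subunits, 4 Cav β subunits and 4 HCN subunits. No measured value entered the rule.

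The study asked what a high-fat diet changes in the NAcLat→VTA pathway. C57BL/6J mice of both sexes had either standard chow throughout (REG, labelled NORM) or, in addition, a high-fat chow for at least 4 weeks (HFD), and mice of both groups had received fluorescent beads in the VTA, which travel back along axons and mark the cells that project there. Bead-labelled cells were recorded in brain slices, the cytosol of each was drawn into the patch pipette, and its polyadenylated RNA was amplified and sequenced as 1 library. There were 43 cells, 23 REG and 20 HFD, of which batch 1 held 13 REG and 5 HFD cells and batch 2 held 10 REG and 15 HFD cells. The labels do not name the mouse of each cell, so a diet counts here as a single sample and the diets are compared without a test. Intervals are for counting error alone. Poisson limits can be too narrow even for that, because reads from amplified cDNA do not each stand for a separate molecule. Cells are numbered within a diet in the order of deposit. Because batch 1 is mostly REG and batch 2 mostly HFD, differences between diets are given within each batch as well.

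Nav channels open on depolarization and carry the upstroke of the action potential, with an α subunit that forms the pore and β subunits that set gating and placement in the membrane. Cav channels admit calcium through an α1 pore, whose type decides the voltage of opening and the role in the cell, while α2δ and β subunits carry the pore to the surface and tune it. HCN channels open on hyperpolarization and pass a depolarizing current that affects the resting potential and rhythmic firing. Medium spiny neurons, the projection cells of the accumbens, rest at negative potentials and fire when many inputs arrive together.

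Total counts per cell had a median of 1426795 and lay between 176961 and 16919555. The labelled cell type was checked on marker lists, with values in counts scaled to 1000000 per cell (CPM). The 7 markers of D1 medium spiny neurons, which include the dopamine receptor gene *Drd1* and the GABA synthesis gene *Gad1*, had a median sum of 4213 CPM in the REG group and 3067 CPM in the HFD group. For the 4 markers of D2 medium spiny neurons the medians were 13.2 and 12.5 CPM, with highest cells at 582 and 1380 CPM. A pair of HFD cells of batch 2, cells 11 and 13, stood apart from the rest in 1 of the D1 markers, *Pdyn*, the dynorphin precursor. *Pdyn* was at 4.90 CPM in cell 11 and 2.84 CPM in cell 13, and REG cell 23 was next lowest at 43.1 CPM. The 7 D1 markers summed to 2153 CPM in cell 11 and 1999 CPM in cell 13. These sums lay below the lowest REG cell, at 2251 CPM, but above the 559.7 CPM of HFD cell 8. In cell 13 most of the sum came from *Gad1* (875.5 CPM), *Ppp1r1b* (759.7 CPM) and *Gad2* (264.7 CPM). Its *Tac1* and *Bcl11b* were low as well, at 8.53 and 1.42 CPM, though REG cell 19 was lower in both, at 6.97 and 0.998 CPM. In cell 11 they were at 471 and 10.4 CPM. The 5 markers of interneurons other than cholinergic cells summed to 461 CPM in cell 11 and 224 CPM in cell 13, the highest sums among the 43 cells, with REG cell 23 next at 216 CPM. Results that rest on either cell are given with and without it. The 7 microglial markers averaged 170.1 CPM over REG cells, between 0 and 1245 CPM. Over HFD cells they averaged 290.1 CPM, between 1.14 and 1389 CPM. In 6 cells, 2 REG and 4 HFD, at least 4 of these 7 markers were above 15 CPM, and the counts below were also taken without them. Summed oligodendrocyte markers averaged 209.7 CPM in REG and 315 CPM in HFD, with the ranges overlapping and *Mog* counted in 1 cell, and their part in the results was not tested.

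The sodium channel genes *Scn3a*, *Scn2a*, *Scn1a*, *Scn9a* and *Scn7a* lie close together on mouse chromosome 2 (GRCm38, GENCODE release M21), within 1327.8 kb. Their transcripts are alike in sequence, and the counts of the cluster were estimates from reads that can fit several of them. The stretch that codes for the last voltage sensor of the channel, with an arginine every 3 residues, shows how alike they are. It is printed 5′ to 3′ on the coding strand, and capitals mark the bases that differ from *Scn9a*, the gene with the largest difference between diets.
Scn9a: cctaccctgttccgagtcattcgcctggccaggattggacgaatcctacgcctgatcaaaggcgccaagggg
Scn3a: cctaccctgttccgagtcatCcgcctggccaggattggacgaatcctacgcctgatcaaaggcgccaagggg
Scn2a: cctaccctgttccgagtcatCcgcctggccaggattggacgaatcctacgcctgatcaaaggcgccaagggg
Scn1a: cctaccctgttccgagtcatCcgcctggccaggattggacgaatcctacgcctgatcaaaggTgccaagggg

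The 72-base windows lie in exon 27 of each transcript, at chr2:66484492-66484563 (minus strand) for *Scn9a*, chr2:65461625-65461696 (minus) for *Scn3a*, chr2:65763675-65763746 (plus) for *Scn2a* and chr2:66273950-66274021 (minus) for *Scn1a*. From *Scn9a*, the windows of *Scn2a* and *Scn3a* differ at 1 base and that of *Scn1a* at 2 bases. The longest run of coding sequence identical to *Scn9a* was 184 bases in *Scn3a*, 103 bases in *Scn1a* and 101 bases in *Scn2a*. Split into words of 31 bases, the word length kallisto uses by default, the annotated transcripts of *Scn9a* shared 599 of 12906 words with *Scn3a*, 517 with *Scn2a* and 295 with *Scn1a*. In all, 5.87% of the words of *Scn9a*, 7.26% of *Scn1a*, 8.99% of *Scn2a* and 9.46% of *Scn3a* were shared with other members. For *Scn8a* this was 0.45%, and for *Scn7a* 0.027%. A read that holds only shared words is divided between the genes by estimation, and the counts of *Scn9a*, *Scn1a*, *Scn2a* and *Scn3a* are to that extent uncertain. *Scn4b* and *Cacnb3* shared no word with any gene.

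A gene counts as detected in a cell where its estimated count is above 0, and as expressed where its CPM was above 15 in at least 5 cells and averaged above 4. By this filter 25 of the 36 members were expressed, and 10802 of all genes. Likewise 25 members were detected in more than 50% of cells. A cell held between 18 and 29 of the members, with a median of 25 in REG and 23.5 in HFD cells. After each cell was thinned to 150000 counts, the medians were 21 and 20.5.

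**Figure D1:**
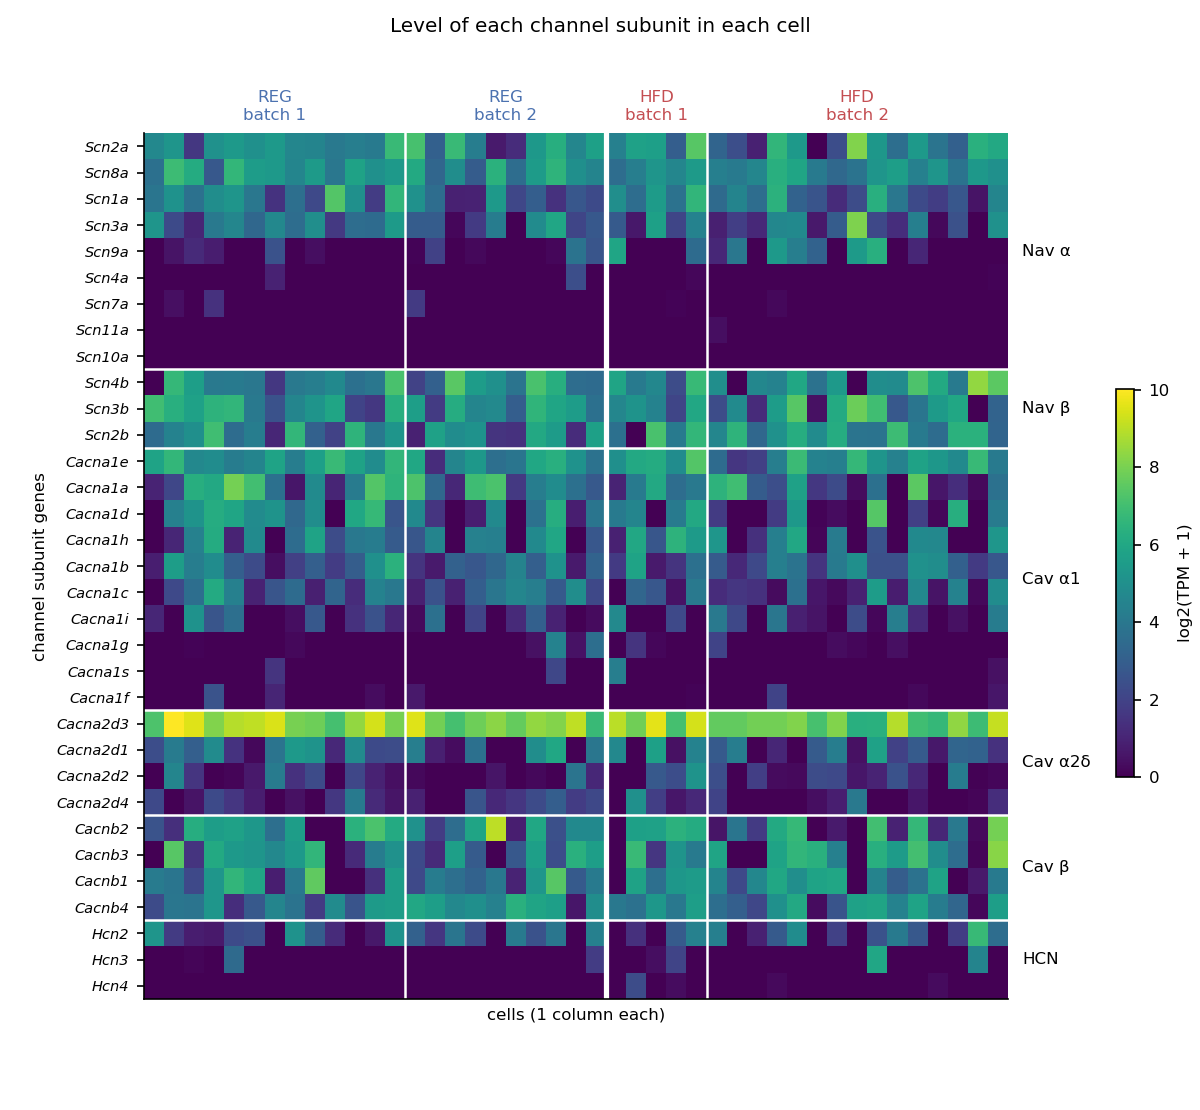
Level of 33 subunit genes (rows, by family) in the 43 cells (columns, by diet and batch), as log2(TPM + 1). *Cacna2d3* was high in every cell, and the pore genes of peripheral or muscle channels at the foot of the Nav α and Cav α1 blocks were near 0 in most cells.

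Levels of different genes are compared in TPM, the deposited level that is scaled for transcript length and sums to 1000000 per cell. *Cacna2d3*, an α2δ subunit, had the highest level of all members, with a median of 253 TPM over the 43 cells and a lowest value of 79.5 TPM. Its lower quartile of 172 TPM lay above the upper quartile of every other member, the highest of which was 71.9 TPM for *Cacna1a*. Among the 25 expressed members the next medians were 34.5 TPM for *Scn3b*, 31.6 TPM for *Scn8a*, 30.8 TPM for *Cacna1e*, 29.2 TPM for *Cacnb3*, 26.4 TPM for *Cacnb2* and 24.6 TPM for *Scn2a*. The quartile ranges of these 6 genes overlapped, so neighbours in this order did not differ beyond their spread. Among all 10802 expressed genes the median of *Cacna2d3* exceeded 96.9% of medians and that of *Scn8a* exceeded 79.2%. Summed over a family, the median per cell was 276 TPM for α2δ, 149.6 TPM for Cav α1, 139 TPM for Nav β, 115 TPM for Cav β, 102 TPM for Nav α and 8.31 TPM for HCN subunits.

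Of the pore-forming Nav subunits, *Scn8a* (Nav1.6) and *Scn1a* (Nav1.1) were detected in 43 of 43 cells, *Scn2a* (Nav1.2) in 42, *Scn3a* (Nav1.3) in 41 and *Scn9a* (Nav1.7) in 21. The first 4 are the channels of central neurons, and *Scn9a* is known best from pain-sensing neurons. In each cell the α subunit with the highest TPM was called the leading subunit. *Scn8a* led in 22 of 43 cells, or 51.2% (exact 95% binomial interval, 35.5% to 66.7%), *Scn2a* in 14 cells, *Scn1a* in 4, *Scn3a* in 2 and *Scn9a* in 1. The share of *Scn8a* in the summed Nav α TPM of a cell had a median of 36.5% and ran from 2.16% to 80.6%, and in 17 cells a single α subunit made up more than 50% of the sum. *Scn8a* was higher than *Scn2a* in 24 cells and lower in 19, so neither gene led throughout. *Scn8a* led in 13 of 23 REG and 9 of 20 HFD cells, and *Scn2a* in 7 of each.

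The remaining α genes described here belong to muscle, glia or sensory neurons and did not pass the filter. *Scn7a*, a sodium sensor of glia and other cells, was detected in 5 cells, and *Scn4a*, the skeletal muscle channel, in 4 cells. *Scn11a*, a channel of sensory neurons, had a single count in 1 cell. *Scn10a*, another sensory channel, had no count in 43 cells, for which 3 cells of 43 set a limit of 6.98% on the share of cells with a count and the exact 95% interval reaches 8.22%.

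Nav β genes were expressed in nearly all cells, with *Scn2b* and *Scn3b* detected in 42 cells each and *Scn4b* in 40. *Scn4b*, which codes for the β subunit linked to resurgent sodium current and is abundant in striatum, had a median of 23.9 TPM and a highest value of 333 TPM, and was at 0 in 3 cells. Leadership was spread, with *Scn2b* first in 14 cells, *Scn4b* in 12 and *Scn3b* in 10. *Scn2b* and *Scn4b* are neighbours on chromosome 9, 8.325 kb apart, and *Scn4b* was the higher of the pair in 25 cells and the lower in 18.

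Among the Cav α1 genes, the R-type pore *Cacna1e* (Cav2.3) and the N-type pore *Cacna1b* (Cav2.2) were detected in all 43 cells, and the P/Q-type pore *Cacna1a* (Cav2.1) in 42. These are the channels of presynaptic terminals and dendrites. *Cacna1e* led in 21 of 43 cells, or 48.8% (exact 95% interval, 33.3% to 64.5%), *Cacna1a* in 11, the L-type pore *Cacna1d* in 5, the T-type pore *Cacna1h* in 4, and *Cacna1b* and *Cacna1c* in 1 each. *Cacna1a* varied most around its median, with quartiles of 2.15 and 71.9 TPM on either side of 12.1 TPM, and where it led it made up as much as 93.4% of the summed Cav α1 TPM. *Cacna1e* exceeded *Cacna1a* in 30 cells and *Cacna1b* in 39.

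Both L-type pores of the brain were present, *Cacna1c* (Cav1.2) in 41 cells with a median of 5.31 TPM and *Cacna1d* (Cav1.3), which opens at more negative voltages, in 33 cells with a median of 12.2 TPM. *Cacna1d* was the higher in 23 cells and *Cacna1c* in 19. The T-type pores open near rest and support burst firing. *Cacna1h* (Cav3.2) was detected in 33 cells, *Cacna1i* (Cav3.3) in 29 and *Cacna1g* (Cav3.1), which did not pass the filter, in 12, and 40 cells held a count of at least 1 of the 3. *Cacna1s*, the L-type pore of skeletal muscle, was detected in 4 cells and *Cacna1f*, that of the retina, in 8, and neither passed the filter. *Cacna1s* shared 18.1% of its words with other genes, nearly all of them with *Gm37759*, so its few counts are uncertain.

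The α2δ family was held by a single gene. *Cacna2d3* led in 43 of 43 cells (exact 95% interval, 91.8% to 100%) and made up a median of 95.4% of the summed α2δ TPM, with a lowest share of 60.1%. *Cacna2d1*, which with *Cacna2d2* codes for the binding sites of gabapentin, was detected in 37 cells with a median of 6.34 TPM. *Cacna2d2* was detected in 31 cells with a median of 0.505 TPM. *Cacna2d4*, best known from photoreceptors, was detected in 29 cells and did not pass the filter. It lies 40.1 kb from *Cacna1c* on chromosome 6.

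No Cav β gene led in most cells. *Cacnb2* was first in 16, *Cacnb3* in 12, *Cacnb1* in 9 and *Cacnb4* in 6, although *Cacnb4* was the only one detected in all 43 cells, and 32 cells held all 4. *Cacnb4* shared 15.5% of its words with other genes, nearly all of them with *A430018G15Rik*, and its level is uncertain to that extent. The highest cell reached 524 TPM for *Cacnb2* and 299.8 TPM for *Cacnb3*, while 5 and 7 cells had no count of them.

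HCN subunits were the lowest family. *Hcn2*, which responds strongly to cAMP, was detected in 33 cells with a median of 3.88 TPM. *Hcn2* led in 24 of the 41 cells with any HCN count, or 58.5% (exact 95% interval, 42.1% to 73.7%), *Hcn3* in 2 and *Hcn4* in 1. *Hcn3* was detected in 7 cells and *Hcn4*, the main subunit of the cardiac pacemaker, in 4 cells, all of them HFD cells, with 11 counts in all. *Hcn3* shared 16.4% of its words with other genes, mostly with *Pklr*. The 2 cells without an HCN count, both HFD, had totals of 178341 and 1407169 counts, and the second is HFD cell 13.

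**Figure D2:**
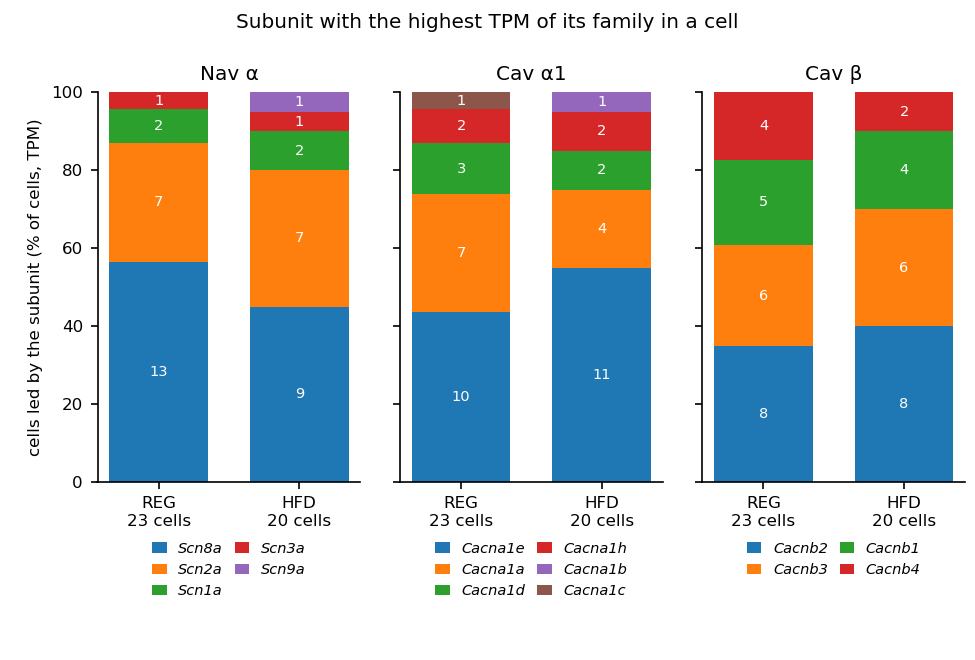
Percent of cells in which each subunit had the highest TPM of its family, for Nav α, Cav α1 and Cav β subunits, by diet, with the number of cells written in each block. *Scn8a*, *Cacna1e* and *Cacnb2* led the most cells in both diets.

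For the comparison of diets, the mean CPM over HFD cells was divided by that over REG cells, and the log2 of this ratio is given. Over the 25 expressed members the median ratio was 0.06, with 13 members above 0 and 12 below. Over all 10802 expressed genes the median was −0.13, with 4627 above 0 and 6175 below. With totals scaled by TMM the split of the members was 17 above and 8 below, and with DESeq2 size factors it was 16 and 9. These scalings also moved the median of all expressed genes, to 0.0061 with TMM and 0.017 with DESeq2. By the difference of mean log2(CPM + 1), which weights high cells less, the split of the members was 8 above and 17 below. The split of all expressed genes was not counted under these 3 alternatives, so the splits of the members are not read against it. The median ratio of the members was 0.11 within batch 1 and 0.22 within batch 2. Without HFD cells 11 and 13 it was −0.04. At or above a ratio of 1 were 3 members, *Scn9a* and *Cacna2d2* among them, which is 12% of the members, beside 9.04% of all expressed genes. Cells above 15 CPM were 2 REG and 7 HFD for *Scn9a*, and 3 REG and 5 HFD for *Cacna2d2*. Both thus reached the 5 cells of the filter only through HFD cells, where they are high, so the filter partly fixed their place in this count. With a filter of at least 10 cells, 1 of 23 members was at or above 1. At or below −1 there was no member, beside 14.3% of all expressed genes. In every one of the 25 members the range of the HFD cells overlapped that of the REG cells. The same overlap was not counted over all expressed genes, so it is not read as a trait of the members. A stricter description asked that the sign of a ratio be shared by the batches and survive the removal of each cell in turn. By it, 5 members or 20% were higher in HFD, *Scn9a*, *Scn2b*, *Scn4b* and *Cacna2d2* among them, beside 13.8% of all expressed genes. The same limit of the filter holds here for *Scn9a* and *Cacna2d2*. *Scn8a*, *Cacna1a*, *Cacna1c*, *Cacna1d*, *Cacna2d1* and *Cacnb1* were lower in HFD, 6 members or 24%, beside 24.2%.

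**Figure D3:**
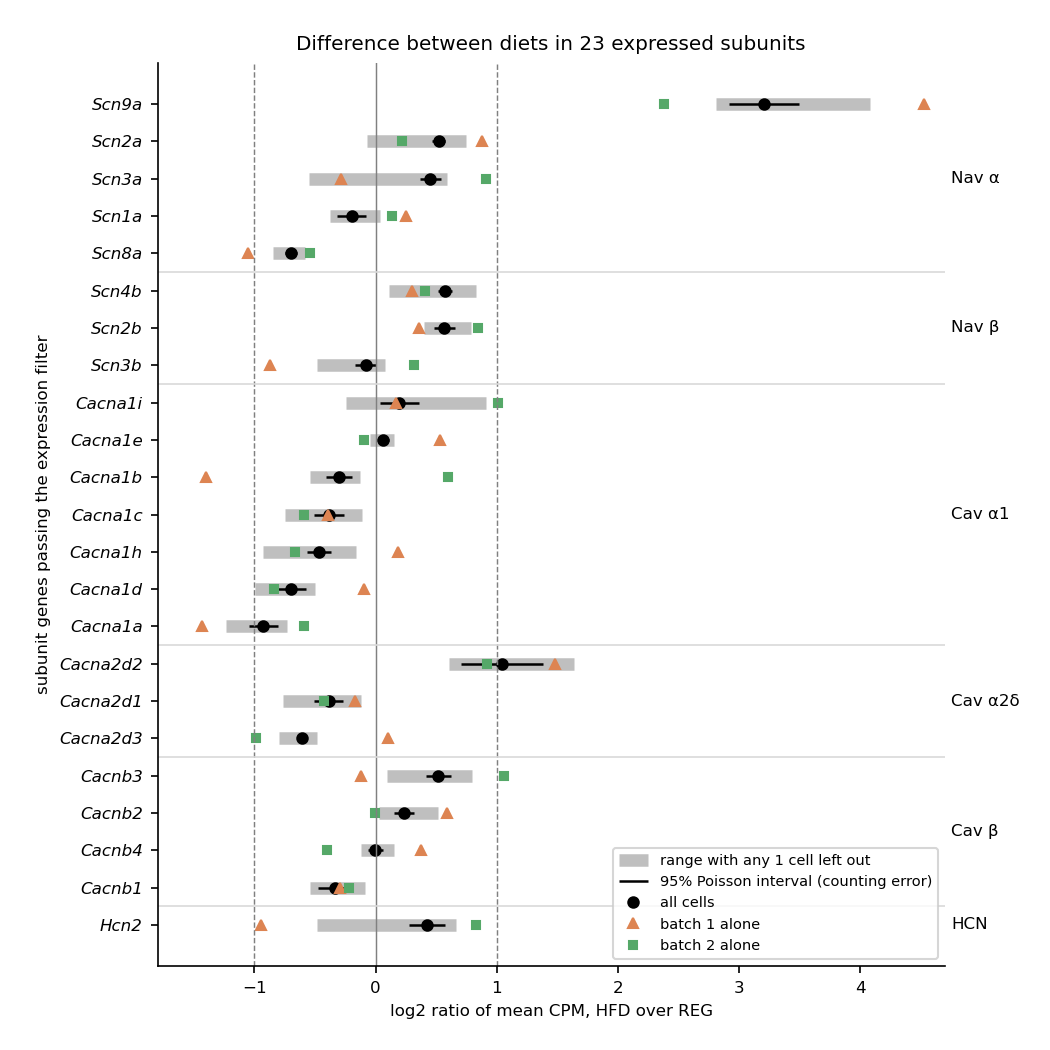
Log2 ratio of mean CPM, HFD over REG, of 23 expressed members over all cells (circles), within batch 1 (triangles) and within batch 2 (squares), with the range when any 1 cell is left out (grey bars) and 95% Poisson limits of the summed counts carried to the ratio (black lines). *Scn9a* stood apart at 3.20, and most other members lay between the dashed lines at −1 and 1, often with the batches on opposite sides of 0.

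*Scn9a* had the largest ratio of the 25 expressed members, and it came from a minority of cells. Its levels in REG cells ran from 0 over a median of 0 to 56.4 CPM, and in HFD cells from 0 over a median of 1.30 to 259 CPM. Cells with a count were 11 of 23 in REG and 10 of 20 in HFD at their own depths, and 4 and 9 after each cell was thinned to 150000 counts. Of the 9 cells above 15 CPM, 2 were REG and 7 were HFD, and 5 HFD cells lay above the highest REG cell. The means were 5.12 CPM and 47.2 CPM, a log2 ratio of 3.20 (95% Poisson limits, 2.92 to 3.49). Summed counts were 187 in REG (160.8 to 215) and 1391 in HFD (1319 to 1466). The ratio was 4.52 within batch 1 and 2.38 within batch 2, where the means were 1.71 and 39.3 CPM and then 9.56 and 49.8 CPM. Removing single cells gave 2.81 to 4.08, the highest without REG cell 22, and removing HFD cells 11 and 13 gave 2.96. The lowest of all alternatives was the difference of mean log2(CPM + 1), at 1.54.

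The 4 highest *Scn9a* cells were HFD cells 14, 13, 1 and 9, at 259, 223, 151 and 138 CPM. In HFD cell 13 the related genes *Scn3a* and *Scn2a* also had their highest values of all cells, at 1162 and 1775 CPM. In HFD cell 14 they were at 20.7 and 95.8 CPM, below *Scn9a*. *Scn1a*, which lies 39.24 kb from *Scn9a*, was at 167, 143 and 132 CPM in HFD cells 1, 9 and 14, its 3 highest values among HFD cells and above its upper quartile of 84.1 CPM over all cells, and at 9.25 CPM in HFD cell 13. How many *Scn9a* counts came from reads shared with them was not tested.

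The other Nav α genes that pass the filter showed smaller differences, of both signs. *Scn8a* ran from 26.4 over a median of 239 to 783 CPM in REG cells and from 27.5 over a median of 151 to 503 CPM in HFD cells. The ranges overlapped nearly in full, but 15 of 20 HFD cells lay at or below the REG median. The means were 287 and 177 CPM, a ratio of −0.70 (95% Poisson limits, −0.75 to −0.65), with −1.05 within batch 1 and −0.54 within batch 2. Removing single cells gave −0.84 to −0.58, short of the limit of −1. *Scn1a* had means of 59.8 and 52.2 CPM and a ratio of −0.20, although within each batch it was above 0, at 0.25 and 0.13.

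The ratios of *Scn2a* and *Scn3a* over all cells changed sign on removal of HFD cell 13. *Scn2a* had means of 166 and 239 CPM, and its ratio of 0.52 became −0.07 without that cell. Cell 13 held 37.2% of the summed *Scn2a* CPM of the HFD cells. Without HFD cells 11 and 13 the ratio of *Scn2a* was 0.0033. Within batch 1, which does not hold cell 13, the ratio of *Scn2a* was 0.88, and within batch 2 it was 0.22. *Scn3a* had means of 80.7 and 110.4 CPM and a ratio of 0.45, which became −0.55 without the cell, while its medians were 63.4 CPM in REG and 21.97 CPM in HFD. *Scn3b* also had its highest value there, 559 CPM. Cell 13 had no count of *Scn4b* and the lowest *Cacna2d3* of the 43 cells, 34.6 CPM.

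Of the β subunits, which anchor and tune the pore, *Scn4b* ran from 0 over a median of 60.7 to 603 CPM in REG and from 0 over a median of 87.6 to 1221 CPM in HFD cells, and the ranges overlapped. *Scn2b* had means of 89.7 and 133 CPM and a ratio of 0.57, with 0.36 and 0.85 in the batches. *Scn4b* had means of 131 and 195 CPM and also a ratio of 0.57, with 0.30 and 0.41 in the batches and 0.11 without HFD cell 19, and 15 of 20 HFD cells lay above its REG median. *Scn3b* had means of 104 and 98.6 CPM and a ratio of −0.08, with −0.87 and 0.32 in the batches. Without HFD cell 13, which held 28.3% of the HFD sum, the ratio of *Scn3b* was −0.49, on mean log2(CPM + 1) the difference was −0.76, and on TPM and with TMM or DESeq2 scaling the ratio was 0.05, 0.06 and 0.09.

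**Figure D4:**
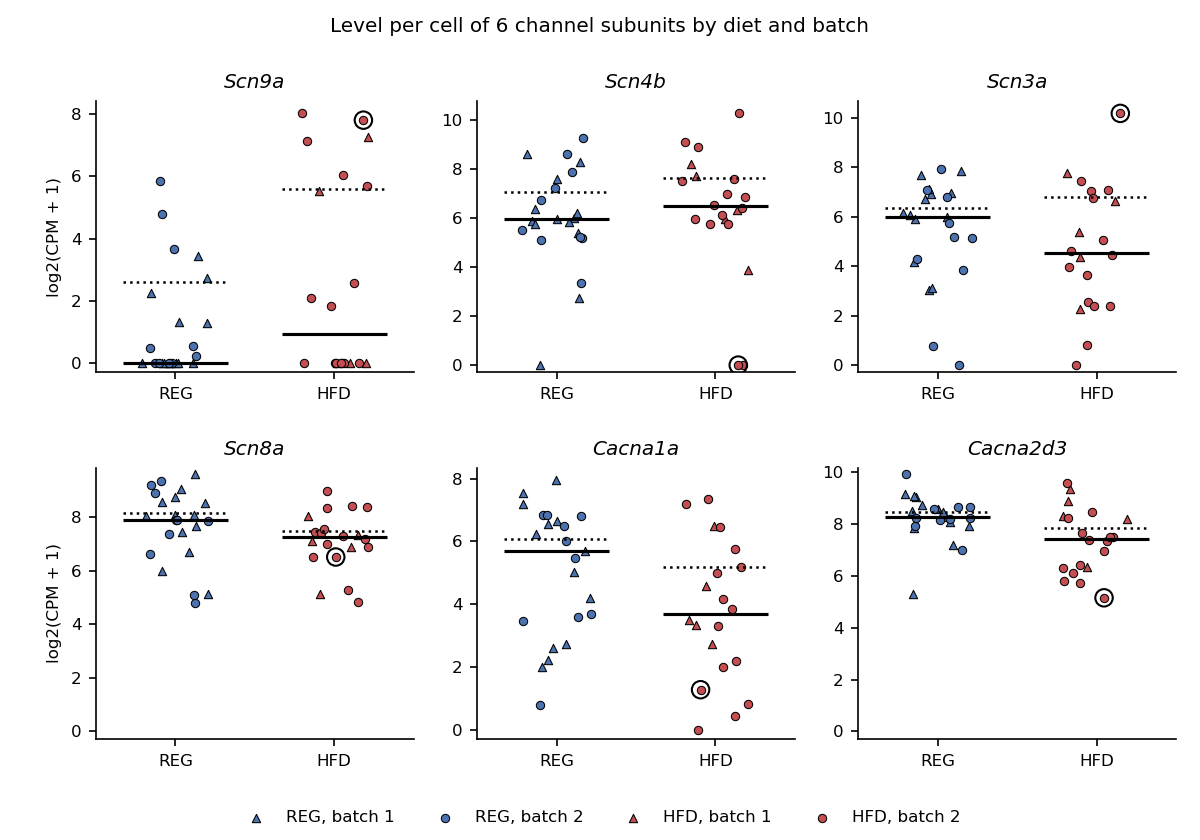
Level per cell of 6 subunits, as log2(CPM + 1), by diet and batch, with the median of the points (solid line), the mean CPM (dotted line) and HFD cell 13 (open ring). *Scn9a* was at 0 in 12 of 23 REG cells and exceeded the REG range in 5 HFD cells, while *Scn8a*, *Cacna1a* and *Cacna2d3* had lower medians in HFD cells.

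Among the calcium channel pores 5 of the 7 expressed genes had a ratio below 0, beside 6175 of all 10802 expressed genes. *Cacna1a* ran from 0.721 over a median of 51.0 to 247 CPM in REG and from 0 over a median of 11.9 to 163 CPM in HFD cells. The diets overlapped, and 5 of 20 HFD cells were above the REG median. Its means were 66.4 and 34.9 CPM, a ratio of −0.93 (95% Poisson limits, −1.05 to −0.80), with −1.44 within batch 1 and −0.59 within batch 2. Removing single cells gave −1.23 to −0.74, the lowest without HFD cell 7, and without the 6 cells of high microglial markers the ratio was −1.62, past the limit of −1. The 2 L-type pores were on the same side. *Cacna1d* had means of 48.4 and 29.9 CPM and a ratio of −0.69, with −0.10 and −0.84 in the batches, and *Cacna1c* had means of 53.9 and 41.3 CPM and a ratio of −0.38, with −0.39 and −0.59 in the batches and 0.18 on summed counts. Detection of *Cacna1d* was 19 of 23 REG and 14 of 20 HFD cells.

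The other pores did not keep a sign across batches, with 1 exception. *Cacna1e* had nearly equal means, 223 and 232 CPM, and a ratio of 0.06, with 0.53 and −0.10 in the batches. *Cacna1b* had means of 65.0 and 52.7 CPM and a ratio of −0.30, which was −1.40 within batch 1, 0.60 within batch 2, and 0.07 and 0.04 with TMM and DESeq2 scaling. *Cacna1h* had means of 88.6 and 64.0 CPM and a ratio of −0.47 on CPM, with 0.18 and −0.66 in the batches, and of 0.37 on TPM. For *Cacna1i*, with means of 27.7 and 31.8 CPM, the ratio was 0.20, above 0 in both batches, but −0.24 to 0.91 when single cells were removed, the highest without REG cell 3.

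*Cacna2d2* was the last member past a ratio of 1, at a low level. Its values ran from 0 over a median of 0.577 to 46.4 CPM in REG and from 0 over a median of 3.32 to 67.6 CPM in HFD cells, with 8 cells in all above 15 CPM. The means were 5.52 and 11.4 CPM, a ratio of 1.04 (95% Poisson limits, 0.71 to 1.38), and summed counts were 221 (193 to 252) and 389.9 (352 to 431). Batch 1 gave 1.48 and batch 2 gave 0.92, and removing single cells gave 0.61 to 1.64, the highest without REG cell 22. On TPM the ratio was 0.52. *Cacna2d3*, far above it in level, had means of 353 and 231 CPM and medians of 311 and 172 CPM. Its ratio was −0.61, with 0.11 within batch 1 and −0.99 within batch 2. *Cacna2d1* had means of 57.1 and 43.7 CPM and a ratio of −0.39, with −0.17 and −0.43 in the batches.

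The Cav β genes differed little or not in the same way in both batches. *Cacnb4* had a mean of 134 CPM in either diet and a ratio of −0.0012, with opposite signs in the batches, 0.38 and −0.40. *Cacnb1* had means of 47.1 and 37.2 CPM and a ratio of −0.34, with −0.30 and −0.22 in the batches, but 0.07 with TMM scaling. *Cacnb2* had means of 70.02 and 82.5 CPM and a ratio of 0.24, with 0.59 and −0.00089 in the batches and −0.30 on TPM. *Cacnb3* had means of 50.6 and 72.5 CPM and a ratio of 0.52, with −0.12 and 1.06 in the batches and 0.10 without HFD cell 20. Without the 6 cells of high microglial markers, the ratios of *Cacnb2* and *Cacnb3* were −0.09 and −0.06.

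Of the HCN genes, *Hcn2* had opposite signs in the 2 batches. It had means of 18.1 and 24.3 CPM and a ratio of 0.42, which was −0.94 within batch 1 and 0.83 within batch 2. The highest cell was HFD cell 19, with 49.2% of the HFD sum, and without it the ratio was −0.48.

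Genes that act on these channels were read from lists drawn up for each kind. Of all expressed genes, 9.04% were at or above a ratio of 1 and 14.3% at or below −1. With lists this short, a count of 0 beside these shares is not read as a trait of the partners. All 9 sodium channel partners were expressed, with no ratio past 1 in either direction and a median ratio of 0.10. The highest by mean TPM was *Ank3* (174 TPM), whose product ankyrin-G anchors Nav channels at the axon initial segment, with means of 309 CPM in REG and 332 CPM in HFD cells and a ratio of 0.10. Of 15 calcium channel partners 9 were expressed, again with none past 1, and the highest was *Calm2* (3235 TPM), which codes for calmodulin, at 2002 and 1951 CPM and a ratio of −0.04. Of 3 HCN partners 2 were expressed. *Pex5l*, which codes for the HCN trafficking protein TRIP8b, had means of 7.58 and 2.79 CPM and a ratio of −1.44. It was −0.24 within batch 1, −2.23 within batch 2 and −1.92 to −1.14 when single cells were removed. *Pex5l* was detected in 22 cells, with 6 above 15 CPM and a median of 0.096 TPM. Its HFD mean was under the 4 CPM of the filter, so it passed only through REG cells, where it is high, and the filter partly fixed its place past −1. *Flna*, which codes for filamin A, was the highest at 25.7 TPM, with means of 63.2 and 54.5 CPM and a ratio of −0.21. The sodium leak channel complex had 3 of 4 genes expressed and none past 1, and the highest was *Unc80* (47.7 TPM), at 143 and 107 CPM and a ratio of −0.42.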

How the data were processed

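Single-cell patch sequencing libraries of 43 cells were analysed. Per the study's methods, reads were demultiplexed and assigned with kallisto to the Ensembl transcriptome of GRCm38, and cells with reads or genes more than 3 median absolute deviations under the median were dropped. The authors deposited estimated counts, not normalized, and TPM, scaled by the authors to transcript length and to 1000000 per cell. CPM, ratios of mean CPM and thinning were computed here from the estimated counts. A diet with no count was set to 3 counts. Intervals were exact Poisson limits for sums and exact Clopper-Pearson limits for shares, at 95%, for counting error only. The limits of summed counts were carried to ratios of mean CPM. Such a ratio weights each cell alike and summed counts do not, so these limits can be too narrow for it. Genes were filtered as in the study, with over 15 CPM in 5 cells or more and over 4 CPM on average. Members, partner lists and marker lists were chosen with earlier results of these data known, and every expressed member is named, except that a few members are not reported here. Leaving out HFD cells 11 and 13, by *Pdyn*, and the 6 cells of microglial markers were alternatives chosen after seeing the data. Sequences, positions and words came from GENCODE M21 (GRCm38), with coding frames read as the longest open frame. The calculations were tested on simulated data. Software was edgeR 4.0.16 (TMM factors, a coefficient read as a value), DESeq2 1.42.0 (size factors), R 4.3.3, matplotlib 3.10.9, scipy 1.17.1, pandas 2.3.3, numpy 2.4.6 and Python 3.11.15.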

Additional observations from a re-analysis of the deposited data

How the results depend on the processing

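The median ratio of the 25 expressed members, 0.06, was 0.13 on TPM, 0.28 with DESeq2 size factors, −0.000026 with totals without *Lars2* and *Gm19220*, 0.34 on summed counts over summed totals, −0.21 as a difference of mean log2(CPM + 1), 0.22 in batch 2 alone, 0.19 as the mean of within-batch ratios, 0.30 as the edgeR coefficient with diet and batch, −0.0012 with a filter of at least 10 cells and −0.040 without the 2 cells below 5 CPM of *Pdyn*. With 1 cell left out it lay between −0.12 and 0.15. TMM and DESeq2 factors moved the median of all expressed genes by 0.14 and 0.15. Members at or above 1, 3 of 25, were 5 with TMM factors, beside 13.1% of all expressed genes. They were 5 in batch 2 alone, 7 on summed counts and 1 on mean log2 values. With the filter of 10 cells they were 1 of 23 members, and without a filter 6 of 33. Members at or below −1, 0 of 25, were 1 without the 6 cells of microglial markers, beside 18.4% of all expressed genes. They were 1 on summed counts, on the mean of within-batch ratios and on thinned counts, and 3 on mean log2 values and in batch 1 alone. Without a filter they were 4 of 33, and with 1 cell left out 0 to 1. For the other alternatives named in these counts, the share over all expressed genes was not taken. Of the 25 ratios, 10 kept their sign under each of the 13 alternatives that change more than 1 cell, and 9 of them also when single cells were removed. The same was not counted over all expressed genes. On CPM, not per length, *Scn8a* led 67.4% and *Cacna1e* 69.8% of cells. The numbers of expressed and of detected members moved by less than 1.5 times. The causes were not tested. No paired analysis was possible because no label ties a REG cell to an HFD cell. Mice are not named, so the spread between animals is unknown.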
